A study of Mus musculus with 49 samples.

Results

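The 23797 ATAC-seq peaks that the authors' annotation places at a transcription start were analysed, out of 86911 peaks in one common set. A peak was taken as a start peak when its gene section in the deposited table read TSS. ATAC-seq uses a transposase that cuts accessible DNA, so the reads in a peak measure how often that stretch was reachable. The cells were naive CD4 T cells of C57BL/6 mice, untreated, from 3 WT libraries and 3 libraries whose genotype label is Elf4 KO, called KO-labelled here; the design text writes the mutant as Elf4-/-. Elf4 is a transcription factor of the ETS family. RNA-seq of naive CD4 cells (3 WT and 4 KO-labelled libraries, also untreated) served as an independent readout. Ages, sexes, the deleted part of Elf4 and any pooling of mice are not given in the sources used here. Nor do the labels say that libraries came from separate mice, so p-values measure the spread between these libraries.

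Active mammalian promoters hold a stretch of DNA free of nucleosomes just upstream of the start, where general and sequence-specific factors bind. Many lie in CpG islands, rich in G and C, and carry sites for SP and KLF factors, NRF1, NF-Y and the ETS family, whose members share a GGAA core. Promoters of widely used genes are open in most cell types, whereas the TATA box marks a smaller class of often regulated promoters.

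Promoter stretches of some genes named below are shown first. They are the 250 bases upstream of the RefSeq start (GRCm38.p6, the assembly also named mm10), 5′ to 3′ on the gene's strand. Cic, Rnf44 and Sp1 were among the most open starts in WT cells, Mgll and Dip2c were higher and Tor4a lower in the KO-labelled libraries, and Elf4 is the targeted gene. Capitals mark 2 motifs on either strand, the ETS motif CCGGAAG and the SP and KLF motif GGGCGG.
Cic, chr7:25267449-25267698, plus strand: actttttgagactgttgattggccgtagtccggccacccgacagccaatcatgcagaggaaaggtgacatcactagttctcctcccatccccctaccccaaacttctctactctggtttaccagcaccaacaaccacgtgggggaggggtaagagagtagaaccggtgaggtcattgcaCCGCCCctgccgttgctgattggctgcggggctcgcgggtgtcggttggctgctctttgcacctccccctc
Rnf44, chr13:54693961-54694210, minus strand: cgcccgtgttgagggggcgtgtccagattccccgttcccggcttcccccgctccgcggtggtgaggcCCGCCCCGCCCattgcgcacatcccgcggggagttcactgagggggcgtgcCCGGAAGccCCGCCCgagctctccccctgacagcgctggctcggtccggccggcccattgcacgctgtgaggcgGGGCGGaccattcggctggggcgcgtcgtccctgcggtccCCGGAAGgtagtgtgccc
Sp1, chr15:102406066-102406315, plus strand: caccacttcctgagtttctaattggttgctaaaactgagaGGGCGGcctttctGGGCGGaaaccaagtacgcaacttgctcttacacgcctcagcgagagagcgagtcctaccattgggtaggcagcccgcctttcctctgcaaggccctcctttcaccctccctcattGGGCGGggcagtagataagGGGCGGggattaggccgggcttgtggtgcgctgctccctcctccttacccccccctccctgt
Mgll, chr6:88724454-88724703, plus strand: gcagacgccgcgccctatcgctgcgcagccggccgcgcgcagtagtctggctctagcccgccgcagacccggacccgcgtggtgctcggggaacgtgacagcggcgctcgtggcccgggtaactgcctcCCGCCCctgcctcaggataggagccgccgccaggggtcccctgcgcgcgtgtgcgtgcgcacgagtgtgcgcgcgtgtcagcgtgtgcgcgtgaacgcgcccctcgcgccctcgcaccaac
Dip2c, chr13:9276275-9276524, plus strand: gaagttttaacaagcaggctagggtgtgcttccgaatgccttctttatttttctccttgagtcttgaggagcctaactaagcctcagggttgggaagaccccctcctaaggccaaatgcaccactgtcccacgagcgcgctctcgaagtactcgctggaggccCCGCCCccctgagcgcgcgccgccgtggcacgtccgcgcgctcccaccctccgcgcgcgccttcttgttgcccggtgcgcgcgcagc
Tor4a, chr2:25196814-25197063, minus strand: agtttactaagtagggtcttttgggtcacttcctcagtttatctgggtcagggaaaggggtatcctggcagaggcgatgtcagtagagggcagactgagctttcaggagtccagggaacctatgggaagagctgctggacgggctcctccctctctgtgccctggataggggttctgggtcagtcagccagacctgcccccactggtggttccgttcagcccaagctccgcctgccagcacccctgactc
Elf4, chrX:48454320-48454569, minus strand: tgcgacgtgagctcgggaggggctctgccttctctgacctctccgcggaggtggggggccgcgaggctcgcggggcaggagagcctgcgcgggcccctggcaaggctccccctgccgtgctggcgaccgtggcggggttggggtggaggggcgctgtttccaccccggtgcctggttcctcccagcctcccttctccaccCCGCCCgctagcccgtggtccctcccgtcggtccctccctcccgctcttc
Rnf44 held 2 ETS and 4 SP and KLF matches, Sp1 4 SP and KLF matches, Cic, Mgll, Dip2c and Elf4 1 each of the latter, and Tor4a neither motif. G and C made up 74.8% of the Mgll, 74.4% of the Rnf44 and Elf4, 63.2% of the Dip2c, 59.6% of the Sp1, 58.4% of the Tor4a and 58% of the Cic stretch. CG dinucleotides numbered 40 in Mgll, 30 in Rnf44, 24 in Dip2c, 23 in Elf4, 11 in Cic and Sp1, and 4 in Tor4a. A match is a run of letters, not evidence of binding. The Tor4a stretch lies mostly outside the Tor4a start peak (chr2:25195314-25196892), so its lack of matches does not describe that peak. No stretch was matched to Abcd2, which was also higher in the KO-labelled libraries.

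Reads in all peaks came to 6191593, 6557786 and 9713279 in WT replicates 1, 2 and 3 and to 13708125, 9608651 and 13513574 in the KO-labelled replicates. WT replicate 1 stood apart at start peaks. Its log2 values correlated across these peaks (peaks are not independent replicates) at r = 0.966 and 0.961 with WT replicates 2 and 3, and at 0.982, 0.981 and 0.982 with the KO-labelled libraries. WT replicates 2 and 3 correlated at 0.983 with each other, and the KO-labelled libraries at 0.988 to 0.991 among themselves. Each comparison below is therefore given with all 6 libraries and without WT replicate 1. In the deposited column names WT replicate 1 carries the number 5342 and KO-labelled replicate 1 the number 5344, while the other 4 libraries carry 5395 to 5398; what the numbers stand for is not given in the sources used here.

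Naive CD4 markers were open at their starts, and defining markers of other cells mostly had no start peak. All 8 naive CD4 markers had one, with WT levels of the most open peak from 9.42 (Cd4) to 105 (Cd3d). Level here means the CPM of a peak (its reads scaled to a library's reads in all peaks) per kilobase of peak length, averaged over the WT libraries where 1 value is given. Of 10 B cell markers 4 had a start peak, at 2.19 to 8.01, and Ms4a1, Cd79a and Cd79b had none. Of 14 myeloid markers 5 had one, at 2.56 to 19.1, with none at Lyz2 or Csf1r. Of 10 CD8 and NK cell markers 3 had one, at 3.06 to 24.4, highest at Cd8b1 and with none at Cd8a. Of 13 stromal and erythroid markers 5 had one, at 2.32 to 34.3, highest at the collagen gene Col1a1 and with none at Col1a2 or Col3a1.

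Start peaks made up 27.4% of all peaks, 40.8% of the length covered and about 3 in 4 reads. Their median length was 544 bases (interquartile range 215 to 1026), against 294 in introns, 320 between genes, 291 in exons and 312 at gene ends. The median WT level was 10.9 at start peaks, 3.18 in introns, 3.51 between genes, 3.34 in exons and 3.83 at gene ends. The distribution at starts had 2 humps, one where the other classes lie and one at 32 to 64, as the histogram of levels shows. The 5495 start peaks shorter than 200 bases held 0.337% of the WT reads at starts, and the 6381 of at least 1000 bases held 70.2%. The 2386 start peaks with the most reads, 10% of the class, held 50% of the WT reads at starts.

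**Figure D1:**
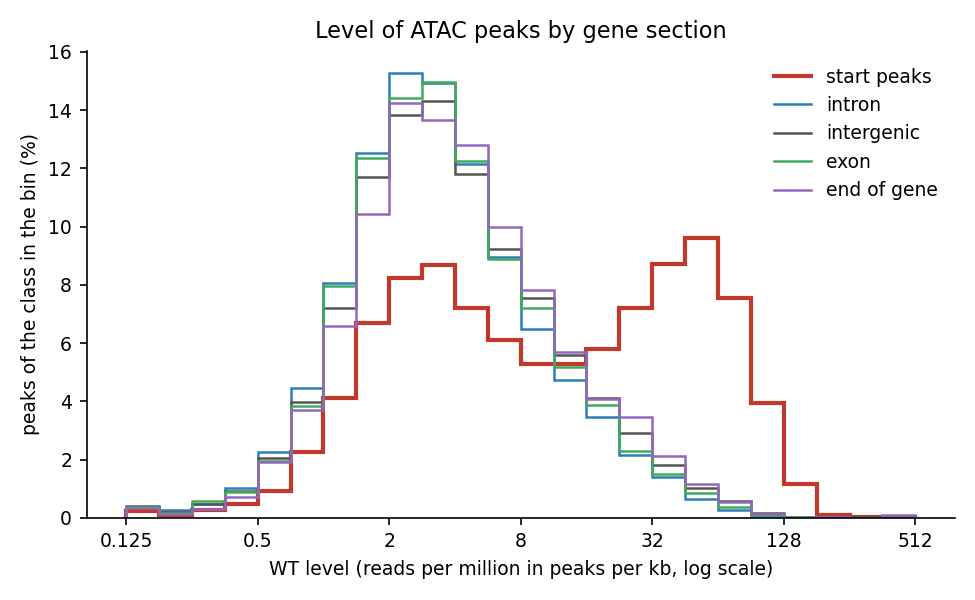
WT level of ATAC peaks (x axis, CPM in peaks per kb, log scale) against the share of each class of peaks in a bin (y axis, %), one line for each gene section; levels outside the axis are put in the end bins. Start peaks (thick line) have a second hump at levels of 32 to 64, where few peaks of the other 4 classes lie.

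The share of reads in peaks that fell at starts did not differ between the groups beyond the spread of the libraries. It was 74.9, 73.0 and 72.2% in the WT and 72.6, 74.5 and 73.9% in the KO-labelled libraries, so the groups overlapped. The means were 73.3 ± 1.37 and 73.6 ± 0.98% (SD, n = 3 each; exact permutation test, two-sided, p = 0.9, where the smallest p of the design is 0.1). Among the peaks with a mean above 8000 reads 9 were start peaks, on predicted genes, pseudogenes and an rRNA gene (Gm10800, Gm10717, Gm10801, Gm10722, Gm28439, Gm13339, Gm11408, Gm4076 and CT010467.1). With 2 such peaks elsewhere they took 11.5, 8.12 and 3.55% of the WT and 5.63, 8.01 and 6.10% of the KO-labelled reads. Without these 11 peaks the share at starts was 71.7 ± 0.62% in WT and 72.3 ± 0.85% in KO-labelled libraries (SD, n = 3 each; exact permutation test, two-sided, p = 0.3).

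A gene often had several start peaks, many of them adjoining pieces of one open stretch. The 23797 peaks belonged to 14187 genes: 8515 with 1, 3471 with 2 and 2201 with 3 or more. Protein-coding genes held 82.1% of the peaks, with a median level of 38.2 at the most open peak of the gene, against 10.9 for lincRNA and 10.6 for antisense genes, whose reads cannot be told apart from those of an overlapping partner. In 9759 start peaks (41%) an end coincided with the end of a neighbouring peak. These pieces had a median length of 336 bases and a level of 5.77, against 789 bases and 21 for peaks that stood alone. Satb1, the chromatin organizer of T cells, had the most, 15 peaks over 91.4 kb (chr17:51742763-51834203) with levels from 0.786 to 47.6, 11 of them touching a neighbour. Akap13, Foxp1 and Plec followed with 13 each and Ggta1 with 12; the peaks of Foxp1, a quiescence factor of naive T cells, spanned 496 kb with levels from 2.16 to 39.7.

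The gene name at a start peak is the authors' choice of one gene per peak. Of the 16863 start peaks whose gene symbol is in the RefSeq promoter table (70.9%), 51.8% held a RefSeq start of that gene and 82.3% lay within 1 kb of one. Not every transcribed gene had a start peak of its own name. Among 6837 genes with at least 10 CPM in WT naive CD4 RNA, 5204 (76.1%) had one. Of the other 1633 genes, 485 matched a promoter window, and 437 of these windows (90.1%) lay under a start peak named for another gene. The rest of the 1633 could not be examined in this way, and whether promoters were shared was not tested. Rpl32, Rps20 and Rps27, genes of the ribosome, had no start peak of their own name.

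The 15 named starts that were most open in WT cells stood at mean levels of 193 to 238, and none differed between the groups past the threshold. Per gene, the most open start had a median level of 32.6; it was at least 100 in 908 genes (6.4%) and under 10 in 3348 (23.6%). Cic, a transcriptional repressor, led them (chr7:25267129-25268570). Its levels were 233, 227 and 254 in WT and 235, 229 and 226 in KO-labelled libraries, and the groups overlapped. Tbl2 (229 ± 21.8), the RING-finger gene Rnf44 (228 ± 9.36), Sp1 (224 ± 9.71), which binds GC boxes, and the histone deacetylase gene Hdac4 (216 ± 14.9) came next (SD, n = 3 each). These 5 neighbours in the order differed by less than the sum of their SDs. Fkbp2, Cdca3, Khsrp, Dnpep, Limk1, Abhd11, Rap2a, Sf1, Dcaf6 and Mylpf completed the 15, down to 193 ± 12.2 (SD, n = 3) at Mylpf. Levels of the groups overlapped at 12 of the 15. At Rnf44, Dnpep and Rap2a the KO-labelled levels lay lower, with edgeR adjusted p of 0.411, 0.465 and 0.777. On the scale of the fit (TMM-normalised CPM) the KO-labelled libraries lay lower without overlap at Rnf44, Dnpep and Mylpf, but not at Rap2a. On that scale the same held at 8.96% of tested start peaks and 7.74% of all tested peaks. Sf1 and Khsrp encode RNA-processing proteins, Limk1 an actin-regulating kinase and Rap2a a small GTPase.

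A very open start did not go with a high transcript level in each of these genes. Cic stood at 166 ± 12.5 CPM, Sp1 at 164 ± 6.12 and Sf1 at 128 ± 8.5 in WT RNA (SD, n = 3 each). Mylpf, which encodes a myosin light chain of fast muscle, stood at 0.315 ± 0.163, Fkbp2 at 0.512 ± 0.207 and Cdca3 at 1.28 ± 0.131 (SD, n = 3 each). The named Mylpf peak lies 1952 bases from the nearest RefSeq start of Mylpf, so it does not hold the promoter of Mylpf as RefSeq places it. In the KO-labelled RNA set, 2 of the 13 genes that were tested passed: Limk1 at 8.96 ± 0.0516 (n = 4) against 6.90 ± 0.0547 CPM (SD, n = 3; log2 difference 0.33, limma adjusted p = 0.021) and Rap2a at 7.59 ± 1.08 (n = 4) against 5.45 ± 0.642 (SD, n = 3; 0.41, limma adjusted p = 0.0475). Over all 12891 genes of that test 4.38% were called higher and 3.64% lower, 8.02% in either direction.

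Over all genes, median transcript levels were higher where the start was more open, with the widest step between the lowest quintile and the next. Among 11294 genes with a start peak and a row in the RNA table, the median WT CPM was 0.548 in the lowest quintile of levels (up to 14.9) and 6.18, 11.3, 14.6 and 16.3 in the following ones. The share of genes under 1 CPM was 59.7% in the lowest and 8.85% in the highest quintile. Spearman's rho across these genes was 0.43, given as a description because genes share libraries and are not replicates. CPM is not scaled to transcript length, so it does not compare genes per molecule.

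The least open starts are set by the reach of the counts. The 15 lowest named genes had 1 to 3 reads in the 3 WT libraries together, and a count of 0 allows up to 3 reads, so their order is not resolved. Among them were Dnttip1, Scn11a, Rrp15, Zc3h7b, Cdc42ep3, Thbd, Nek6, Flnc, Rpl29-ps2, Lig4, Gsc2, Mir125b-2, Sel1l3 and Xkr7. Their peaks were 77 to 325 bases long. Xkr7, at the bottom, had 0, 0 and 1 read in WT and 4, 6 and 4 in KO-labelled libraries; the members were picked for low WT values, and that contrast is no test. Several of these genes were transcribed: Cdc42ep3 stood at 17.7 ± 0.236 CPM, Zc3h7b at 14.4 ± 1.77 and Lig4, a DNA ligase gene, at 11.3 ± 0.513 in WT RNA (SD, n = 3 each). The named peaks lie 974, 332 and 480 bases from the nearest RefSeq start of these 3 genes, so they do not hold those starts. In KO-labelled RNA Cdc42ep3 fell to 11.5 ± 1.76 CPM (SD, n = 4; log2 difference -0.60, limma adjusted p = 0.00504) and Zc3h7b rose to 20.5 ± 1.56 (SD, n = 4; 0.49, limma adjusted p = 0.00882).

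Gene groups differed in how open their starts were. Immediate early and activation genes had the highest median of the 20 gene lists, 87.4 over 19 of 20 genes, with Jund at 190 ± 12.9, Dusp1 at 122 ± 6.08, Tnfaip3 at 118 ± 14.3 and Egr1 at 116 ± 3.38 (SD, n = 3 each). Jun had no start peak of its own name. Quiescence regulators (median 68.7, 14 of 14) were led by the cell cycle inhibitor gene Cdkn2d at 138 ± 7.54, Foxo3 at 128 ± 5.09 and Btg1 at 116 ± 3.11 (SD, n = 3 each). Cell cycle genes had a median of 54.3 over 21 of 22 genes. The replication gene Mcm4 stood at 149 ± 14.3 and the proliferating cell antigen gene Pcna at 116 ± 7.07 (SD, n = 3 each), and Top2a, at 1.11 CPM in WT RNA, had a start at 73.4 ± 9.01 (SD, n = 3).

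Naive state and homing genes had a median of 47.6 (19 of 20, led by Klf2 at 154 ± 16.1; S1pr1 had none), ETS factors of 41.9 (17 of 26, led by Gabpa at 105 ± 3.86), T cell receptor genes of 35.3 (18 of 18) and interferon response genes of 28.6 (27 of 28, led by Irf1 at 98 ± 3.65; SD, n = 3 each). Effector and helper lineage genes were lower, with a median of 14.6 over 19 of 34 genes. Prdm1 (49.6 ± 6.27), Maf (47.5 ± 0.608), Batf (43.5 ± 6.83) and Tnf (39.6 ± 1.21; SD, n = 3 each) led them, and the cytokine genes Ifng, Il4, Il5, Il13, Il17a, Il17f, Il21, Il22 and Il10 had no start peak. Inflammation genes of myeloid cells had one in 6 of 22 genes, at 2.62 to 12.1. Ribosomal protein genes of the cytosol had a median of 63.1 (69 of 87, led by Rps29 at 137 ± 9.52), those of mitochondria 47.7 (64 of 78, led by Mrps18b at 143 ± 12.2), proteasome genes 48.4 (35 of 39) and histone genes 54.2 (39 of 110 symbols; SD, n = 3 each). Of the 71 histone symbols without a start peak, 67 were in the RNA data. H2az1, H2az2 and H4c8 had start peaks but no RNA value under those symbols. A gene may therefore be counted under 2 symbols, and 39 of 110 need not be the share of histone genes with a start peak. The median over all genes with a start peak was 32.6.

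Promoter sequence differed between starts with and without a peak. Of 32851 RefSeq windows of 300 bases (250 upstream and 50 downstream of a start), 12786 (38.9%) lay under a start peak. G and C made up a median of 62% with and 48% without a start peak, and the median number of CG dinucleotides was 22 and 4. The SP and KLF motif GGGCGG was in 67.5% of windows with a start peak, 15.4% without and 35.7% of all windows, counting both strands. For the ETS motif CCGGAAG the shares were 18.7, 2.57 and 8.86%, and for the NRF1 motif 2.22, 0.174 and 0.971%. The TATA motif TATAAA ran the other way, at 5.94, 18.5 and 13.6%. None of the 7 motifs searched contains another.

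With level, the motifs took different courses. The ETS motif was in 6.68% of windows in the lowest quintile of start levels and in 19.0, 23.9, 23.8 and 20.3% of the following ones. The NF-Y motif CCAAT was as common without a start peak (37.3%) as with one (37.5%), but went from 31.1% in the lowest to 47.8% in the highest quintile. GGGCGG went from 58.9 to 75.8%, and the CREB and ATF motif TGACGTCA from 1.99 to 4.34%, with 0.768% where there was no start peak. Of the 2911 ETS matches under start peaks, 35.8% began in the 50 bases just upstream of the start, and 6.39% in the farthest 50. These are shares of letters in fixed windows and say nothing of which ETS factor, if any, was bound.

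**Figure D2:**
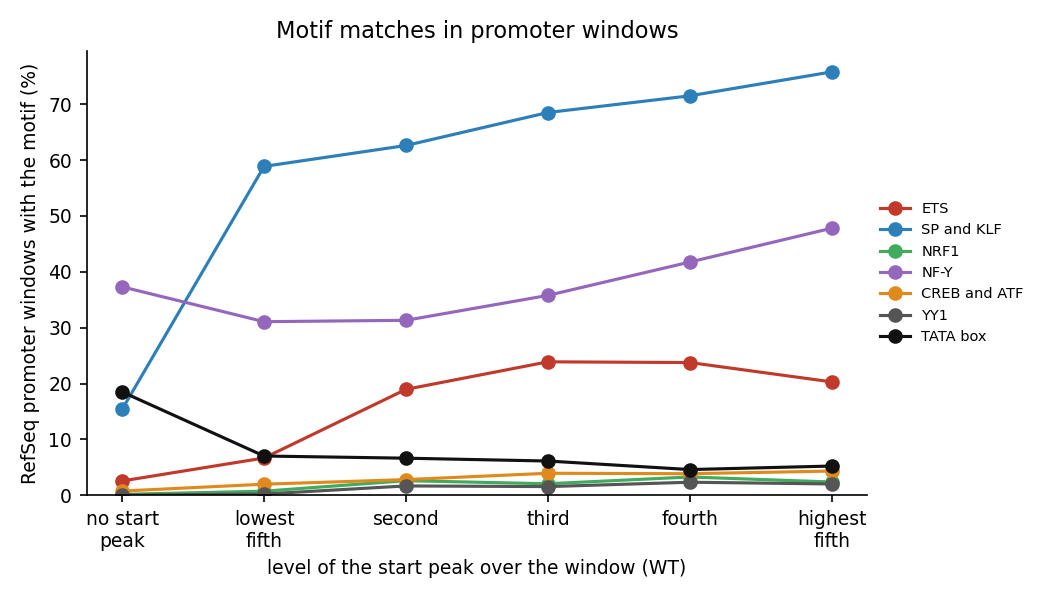
Share of RefSeq promoter windows that hold a motif on either strand (y axis, %) for windows with no start peak and for quintiles of the WT level of the start peak over the window (x axis); each line is 1 of 7 motifs, named by the factor. The SP and KLF line climbs from 15.4 to 75.8%, the NF-Y line from 31.1 to 47.8% over the quintiles, and the TATA line lies highest where there is no start peak.

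Elf4 itself kept open starts in the libraries labelled KO. Its main start peak (chrX:48453973-48455088) had levels of 28.2, 28.3 and 36.5 in WT and 36.5, 32.1 and 31.7 in KO-labelled libraries, and the groups overlapped (log2 difference 0.08 ± 0.10 SE, edgeR adjusted p = 0.831). The upstream peak (chrX:48462579-48463127) had 11.5, 12 and 15 against 15.4, 11.6 and 18.6, again with overlap (0.23 ± 0.21 SE, edgeR adjusted p = 0.766). The third peak, which touches it, had 0 to 4 reads per library and was too low to test. Elf4 RNA in the naive set was 191 ± 4.87 CPM in WT (SD, n = 3) and 189 ± 13.8 in KO-labelled libraries (SD, n = 4; log2 difference -0.01, limma adjusted p = 0.932). Because the deleted part is not stated, neither readout checks the genotype, and "KO-labelled" is kept throughout.

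With all 6 libraries, 4 start peaks were called different, 3 higher and 1 lower in the KO-labelled cells. Among all peaks 47000 passed the filter on low counts, 16439 of them start peaks (69.1% of the class); 0.00638% of all tested peaks were called higher and 0.00213% lower (0.00851% in either direction), and all 4 calls were start peaks. At an unadjusted p under 0.05 there were 2220 start peaks (13.5%), against 9.87% of all peaks. In TMM-normalised CPM, the scale of the fit, the groups of 3 did not overlap, KO-labelled higher, at 1367 start peaks (8.32%, against 7.52% of all peaks), and KO-labelled lower at 1473 (8.96%, against 7.74%). The median log2 difference was -0.004 over start peaks and -0.007 over all.

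Abcd2, a peroxisomal transporter of very long-chain fatty acids, had the largest difference of the 4 (chr15:91191513-91192358). Its start peak had levels of 3.44, 3.25 and 4.87 in WT and 13.3, 12.6 and 10.8 in KO-labelled libraries. The groups did not overlap, with a log2 difference of 1.62 ± 0.21 SE (edgeR adjusted p = 0.0486). Abcd2 RNA rose from 0.166 ± 0.0236 CPM in WT (SD, n = 3) to 1.41 ± 0.321 (SD, n = 4; log2 difference of CPM + 1 of 1.04, limma adjusted p = 0.000755).

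Dip2c (chr13:9276290-9277455) had 22.2, 14.4 and 12.0 in WT and 41.5, 47.3 and 41.4 in KO-labelled libraries, with WT replicate 1 the nearest to the other group. The log2 difference was 1.42 ± 0.19 SE (edgeR adjusted p = 0.0486). Its RNA rose from 2.40 ± 0.498 CPM (SD, n = 3) to 4.52 ± 0.637 (SD, n = 4; 0.70, limma adjusted p = 0.00645). Mgll, the monoacylglycerol lipase gene (chr6:88724222-88724922), had 15.2, 13.1 and 10.3 against 29.6, 36.3 and 32.6, a log2 difference of 1.35 ± 0.18 SE (edgeR adjusted p = 0.0486). Mgll RNA was too low for the test, at 0.0382, 0.131 and 0.105 CPM in WT and 0.426, 0.507, 0.418 and 0.275 in KO-labelled libraries, without overlap.

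Tor4a, a torsin-family ATPase gene (chr2:25195314-25196892), was the call in the other direction. Its levels were 31.6, 35.5 and 35.2 in WT and 23.5, 22.7 and 22.3 in KO-labelled libraries, a log2 difference of -0.60 ± 0.08 SE (edgeR adjusted p = 0.0486). Tor4a RNA fell from 62.1 ± 2.68 CPM (SD, n = 3) to 39.0 ± 2.37 (SD, n = 4; -0.66, limma adjusted p = 0.000234). The 4 calls rest on the full set of libraries: leaving out WT replicate 2 or 3 or any KO-labelled library left none of them, with adjusted p from 0.085 to 0.522. The direction was the same each time, with log2 differences from 1.15 to 1.81 for the 3 higher peaks. As the groups did not overlap at the 4 peaks, leaving out a library could hardly turn the direction.

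The rule that names 10 peaks each way also took in 16 that were not called, all without overlap between the groups. On the higher side these were B4galt4, a galactosyltransferase gene (14.3 ± 0.993 against 26.0 ± 1.54), Gnaz, a G protein gene (20.2 ± 4.17 against 46.0 ± 4.42), Rec8, a meiotic cohesin gene (10.2 ± 1.28 against 26.5 ± 3.49), Rhob, a small GTPase gene (45.9 ± 2.09 against 65.6 ± 4.87), Eid2 (5.82 ± 1.6 against 14.3 ± 0.318), a short peak at Ikzf1, the gene of the lymphoid factor Ikaros (6.18 ± 1.41 against 19.3 ± 3.78), and Gm28616 (SD, n = 3 each). Their edgeR adjusted p ran from 0.0683 to 0.103. On the lower side were, among others, Anxa4, an annexin gene (12.5 ± 0.840 against 6.97 ± 0.424), Hivep1 (81.9 ± 4.02 against 62.7 ± 2.55), Xpo6 (17.1 ± 1.52 against 8.37 ± 2.03), E430024P14Rik, A230059L01Rik, Gm21989, Gm36738 and Gm14321 (SD, n = 3 each; edgeR adjusted p 0.187 to 0.283). The Xpo6 peak lies 18908 bases from the nearest RefSeq start of that gene.

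RNA of Eid2 rose from 2.59 ± 0.179 (SD, n = 3) to 4.95 ± 0.195 CPM (SD, n = 4; log2 difference 0.73, limma adjusted p = 0.000777). Rhob RNA was 18.3, 18.2 and 6.24 CPM in WT and 67.1, 73.7, 66.7 and 13.5 in KO-labelled libraries, so the groups overlapped (limma adjusted p = 0.0556). Ikzf1 (adjusted p = 0.168), Hivep1 (0.787), Xpo6 (0.183) and E430024P14Rik (0.671) did not pass limma's test. Anxa4, under the filter, stood at 0.372 ± 0.118 CPM in WT (SD, n = 3) and at 0.110 ± 0.0116 in KO-labelled libraries (SD, n = 4).

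**Figure D3:**
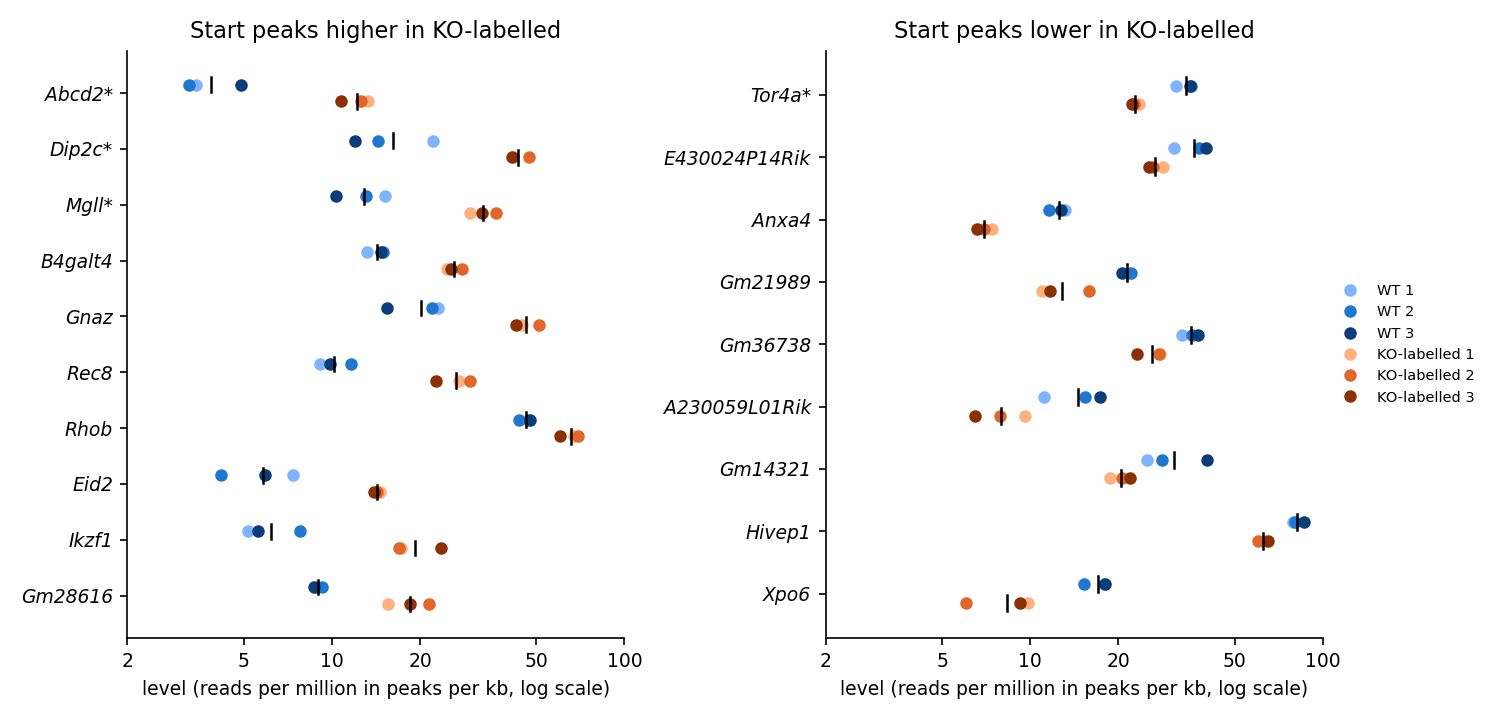
Level in each library (x axis, CPM in peaks per kb, log scale) of 10 start peaks named on the higher (left) and 9 on the lower (right) side; blue points are the 3 WT and orange points the 3 KO-labelled libraries, black bars group means, and an asterisk marks the 4 peaks called by edgeR. The groups do not overlap at any of these peaks, which were chosen on this contrast; at Dip2c WT replicate 1 (lightest blue, 22.2) is the WT point nearest to the KO-labelled ones.

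Without WT replicate 1 many more start peaks were called, most of them higher. Of 16942 start peaks tested, 1646 were called higher (9.72%) and 61 lower (0.36%), against 3.76 and 0.375% of all peaks in the same fit (4.13% in either direction). In the other classes 0.474% (introns), 0.536% (between genes), 1.31% (exons) and 0.878% (gene ends) of tested peaks were called higher. Without both replicates 1, which leaves the 4 libraries numbered 5395 to 5398 in the column names (2 a group), 1585 of 16637 tested start peaks were higher and 116 lower (edgeR). The share called over all peaks in that fit is not given here. With the run of numbers as a term and all 6 libraries, edgeR called 0 each way, with 2398 start peaks at an unadjusted p under 0.05. Both fits were chosen after seeing the data; numbers 5342 and 5344 hold 1 library a group, so no test within them was made. Leaving out any one of the other 5 libraries gave 0 calls each way (edgeR), with 1287 to 1888 start peaks at an unadjusted p under 0.05 against 3546 without WT replicate 1. The 4 peaks called with 6 libraries were also called without WT replicate 1, with adjusted p of 4.28e-05 (Abcd2), 3.08e-10 (Dip2c), 6.27e-07 (Mgll) and 5.29e-05 (Tor4a; edgeR). The 2 fits share libraries, and WT replicate 1 was singled out after it was seen to resemble the KO-labelled libraries. These adjusted p are therefore no separate support for the 4 peaks.

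WT replicate 1, which took no part in that call, lay with the KO-labelled libraries at most of these peaks. At the 1646 higher peaks the median KO-labelled minus WT difference was 0.73 log2 against WT replicates 2 and 3 and -0.02 against WT replicate 1. In TMM-normalised CPM, WT replicate 1 reached at least the lowest KO-labelled library at 1186 peaks (72.1%) and exceeded both other WT libraries at 1598 (97.1%). At the 61 lower peaks the median was -0.45 against WT replicates 2 and 3 and -0.22 against WT replicate 1. With all 6 libraries the median difference of the 1646 peaks was 0.47, and 1641 had a positive sign. The peaks were picked with the other libraries of the same set, so the sign was largely fixed in advance. They were picked as low in WT replicates 2 and 3, so part of the 97.1% also follows from the choice. The same shares over all tested start peaks are not given here, so neither 72.1 nor 97.1% can be read against an ordinary rate.

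Among the 10 largest of these differences were peaks with few reads in WT replicates 2 and 3; the 4 given here were picked after their values were seen. At Plxnd1, the gene of a semaphorin receptor (chr6:115994798-115994960), levels were 43.9, 0 and 0.636 in WT and 44.6, 34.0 and 43.9 in KO-labelled libraries. Lin54, a gene of the DREAM cell cycle complex (chr5:100500571-100500728), had 51.4, 4.86 and 1.31 against 48.3, 46.4 and 54.2. Ube2m, a neddylation enzyme gene (chr7:13037691-13037918), had 53.4, 3.36 and 3.63 against 55.0, 45.4 and 61.6. Crebbp, a histone acetyltransferase gene (chr16:4213284-4213942), had 20.6, 1.85 and 0.782 against 21.2, 14.4 and 18.9. In all 4 the WT replicate 1 value lay inside the KO-labelled range, as it did at Begain and Mylpf among the rest of the 10. It lay below that range at Gm10472, Epb41l4b and Egln1 and above it at Zfp236. RNA of the 4 genes given did not pass limma's test (adjusted p = 0.494 at Plxnd1, 0.545 at Lin54, 0.85 at Ube2m and 0.672 at Crebbp).

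One start peak of a gene could be called while another of the same gene was not. Of 2535 genes with at least 2 tested start peaks, 646 had at least 1 called higher, and in 609 of them (94.3%) another was not. Only 9.72% of all tested start peaks (3.76% of all peaks) were called higher, so a high share is given by that rate. Start peaks of one gene need not belong to one start. At Satb1 2 adjoining peaks were called (chr17:51832325-51832780 and chr17:51832780-51832991; log2 1.21 and 1.71, edgeR adjusted p = 0.000696 and 8.26e-06), while its most open peak, at 45.4, 46.7 and 50.6 in WT and 47.1, 41.5 and 43.1 in KO-labelled libraries, had an adjusted p of 0.651. The second of the 2 called peaks had 79.6, 27.5 and 17.1 in WT and 75.7, 54.3 and 75.1 in KO-labelled libraries. Tcf7, Bach2 and Foxp1, regulators of the naive state, also had called start peaks that were not their most open one.

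Of the gene lists, naive state and homing had 7 of 54 tested start peaks called higher without WT replicate 1 (Bach2, Foxp1, Myb, Satb1 and Tcf7) and 0 lower, where 9.72 and 0.36% of all start peaks were called (3.76 and 0.375% of all peaks); the list's median was -0.01, against 0.01 over all start peaks. Quiescence regulators had 3 of 17 higher (Klf4, Kmt2d and Rb1) and cell cycle genes 2 of 21 (Ccne1 and E2f1). E2f1, which drives entry into S phase, had 90.1, 53.1 and 53.4 in WT and 89.1, 95.2 and 98.3 in KO-labelled libraries, so WT replicate 1 lay with the other group. Klf4, which restrains proliferation, had 78.8, 81.2 and 67.9 against 116, 106 and 110, and here WT replicate 1 lay with WT (log2 0.61 without it, edgeR adjusted p = 5.27e-06; 0.52 with it, edgeR adjusted p = 0.103). Immediate early genes had 2 of 32 higher (Atf3 and Nfkbia). With all 6 libraries edgeR called 0 start peaks of the genes on any list, of 484 tested, with 41 at an unadjusted p under 0.05. In that fit 13.5% of all tested start peaks and 9.87% of all tested peaks were under that unadjusted threshold.

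Of 34 start peaks tested at T cell receptor genes, 3 were called lower without WT replicate 1 and 0 higher, beside 0.36 and 9.72% of all start peaks (0.375 and 3.76% of all peaks), with a list median of -0.14 (-0.13 with 6 libraries). The CD3 chain gene Cd3d had 90.1, 110 and 114 in WT and 95.1, 84.8 and 88.3 in KO-labelled libraries (log2 -0.29, edgeR adjusted p = 0.00272). Cd3e had 46.7, 58.6 and 63.8 against 53.0, 46.0 and 51.2 (-0.25, edgeR adjusted p = 0.0401), and Zap70, the kinase of the receptor, 26.7, 38.2 and 38.9 against 30.6, 28.1 and 29.2 (-0.36, edgeR adjusted p = 0.0258). At Cd3d, Cd3e and Zap70 WT replicate 1 lay in the KO-labelled range or below it. With it included the adjusted p were 0.325, 0.486 and 0.458, and RNA of the 3 genes did not pass limma's test (adjusted p = 0.901, 0.489 and 0.828). Irf4, a helper lineage factor, was the 1 of 25 effector peaks called, lower, as were 0.36% of all start peaks (-0.35, edgeR adjusted p = 0.0259).

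The share called without WT replicate 1 differed with the base composition of the promoter. A RefSeq window lay under 9687 of the 16439 tested start peaks (58.9%), less than the 80% needed, so a check over all start peaks is void and the values describe those 9687. In the group with the most G and C (71.7 to 88%, 1568 peaks) 667 peaks (42.5%) were called higher, against 29 of 1677 (1.73%) in the group with the least (32.3 to 53%). In the richest group the median deviation of a library from the mean of the peak (TMM-normalised CPM) was 0.13, -0.16 and -0.24 log2 in WT replicates 1, 2 and 3 and 0.05, 0.11 and 0.14 in the KO-labelled ones. In the other 5 groups every library's median lay between -0.03 and 0.05. The median was 73.7% G and C under the 1646 higher and 57.3% under the 61 lower peaks, where a window existed for 67.6 and 67.2% of them. The part of base composition in the calls was not tested.

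**Figure D4:**
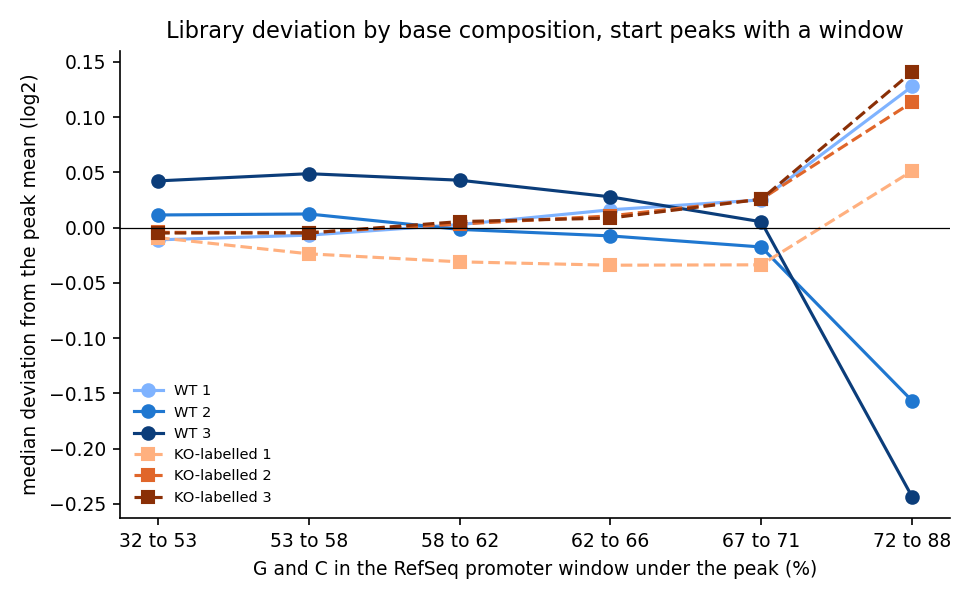
Median deviation of each library from the mean of the peak (y axis, log2 CPM) for the 9687 tested start peaks with a RefSeq window, in 6 groups by the share of G and C in the window (x axis, %); blue circles are WT and orange squares KO-labelled libraries. The lines stay within 0.05 of 0 up to 71% and part in the last group, where WT replicate 1 (0.13) lies with the KO-labelled libraries and WT replicates 2 and 3 lie below (-0.16 and -0.24).

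The share called higher without WT replicate 1 was 6.58% in the lowest quintile of WT levels, 10.5, 12.2 and 12.3% in the middle ones and 6.99% in the highest. These quintiles are cut on WT values that enter the contrast, so part of this course may follow from the sorting. The median log2 difference in that fit was 0.25 in the lowest quintile and -0.02 in the highest. On chromosome X 11 of 432 tested start peaks (2.55%) were called higher, against 6.65 to 12.5% on the other chromosomes. In promoter windows under the higher peaks the ETS motif was found in 12.5% and the SP and KLF motif in 84.6%, against 18.7 and 67.5% under all start peaks.

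Of 1210 tested genes with a start peak called higher without WT replicate 1, 96 (7.93%) rose in KO-labelled RNA and 37 (3.06%) fell, where 5.22 and 4.34% of all genes with a start peak did. Of 45 tested genes with a start peak called lower, 11 (24.4%) fell and 1 (2.22%) rose. Hsd17b11, a steroid dehydrogenase gene (chr5:104021437-104022144), was one of these, with start levels of 13.7, 16.4 and 15.7 against 9.29, 9.42 and 9.52 (log2 -0.73, edgeR adjusted p = 0.026) and RNA of 7.77 ± 0.623 (SD, n = 3) against 2.92 ± 0.486 CPM (SD, n = 4; -1.17, limma adjusted p = 0.000159). Rnf216, a ubiquitin ligase gene (chr5:143112756-143113222), had 10.4, 15.7 and 13.5 against 9.24, 4.69 and 7.46 (-0.96, edgeR adjusted p = 0.039) and RNA of 4.28 ± 0.573 (SD, n = 3) against 2.39 ± 0.538 CPM (SD, n = 4; -0.65, limma adjusted p = 0.0129). At both the groups did not overlap with WT replicate 1 included.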

How the data were processed

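ATAC-seq peaks and naive CD4 RNA were analysed. Per the submitters' processing notes, the build was mm10, with BWA, MACS2, Bowtie2, DESeq2 and Partek 10.0.21.0411 named without roles. Whether duplicate or mitochondrial reads were removed is not given in the sources used here. The deposited ATAC-seq table holds the authors' expected counts (estimated reads) for 86911 peaks and their gene labels. The deposited RNA table holds the authors' CPM values.

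Counts were rounded and tested over all peaks with edgeR 4.0.16 (TMM, filterByExpr, quasi-likelihood) in R 4.3.3, two-sided, with Benjamini-Hochberg adjustment, and called below 0.05. RNA was tested with limma 3.58.1 (trend) on log2(CPM + 1) where 3 or more libraries reached 1 CPM. Alternatives were DESeq2 1.42.0, cyclic loess with limma, other scalings and filters, and leaving out libraries. The edgeR and limma fits were tested on simulated data. Reads in peaks ranged from 6191593 to 13708125 per library. Same-numbered ATAC libraries did not deviate together (r from -0.09 to 0.03), so groups were not paired. Named genes are the 15 most and 15 least open starts (no numbered gene models), 10 differences each way (called ones first, then the lowest p), Elf4, and list members. The members and lists were chosen with earlier results of these data known. Coordinates are printed as deposited. A few named genes are not reported here.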

Additional observations from a re-analysis of the deposited data

Results flagged for a closer look

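Among the 10 genes at named start peaks whose 4 KO-labelled RNA values were checked for an extreme value, 1 was found: Rhob, whose KO-labelled replicate 4 stood at 13.5 CPM, far from 67.1, 73.7 and 66.7 in the other 3. Chance alone flags about 1 in 20 such groups. WT replicate 3 was also low, at 6.24 against 18.3 and 18.2 CPM.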

How the results depend on the processing

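With all 6 libraries 3 start peaks were higher and 1 lower. The counts, higher then lower, were 29 and 1 with total reads in peaks as scaling, 51 and 3 with DESeq2, 43 and 1 with no filter on low counts, and 0 and 0 with TMM factors from start peaks, with cyclic loess and limma and with a mean count of at least 50; median-ratio factors gave the same counts as TMM. At an unadjusted p under 0.05 the 3 settings with 0 calls had 2245, 2349 and 1557 start peaks. With the replicate number as a block (the labels state no pairing) both counts were 0, with 1991 start peaks at an unadjusted p under 0.05. In 2 fits chosen after seeing the data, by the numbers in the deposited column names (5342 and 5344 for replicates 1, 5395 to 5398 for the others), the 4 libraries of the second run alone gave 1585 and 116, and the run as a term gave 0 and 0, with 2398 at an unadjusted p under 0.05. Leaving out 1 library at a time gave 0 to 1646 higher and 0 to 61 lower, the upper values without WT replicate 1 and 0 without any other. The cause of these changes was not tested. Start peaks tested numbered 16439 with total reads and with DESeq2, 23797 with no filter and 16637 in the second run alone. Shares called over all peaks in these fits are not given here. The 4 called peaks kept their direction under all 16 alternatives and were called in 6 (median-ratio factors, total reads, DESeq2, no filter, without WT replicate 1 and the second run of numbers alone). Their groups did not overlap, so the direction could hardly turn. The difference in the share of reads at starts, 0.298 percentage points, ranged from -0.276 (without WT replicate 3) to 1.06 when 1 library was left out, turning to -0.119 without KO-labelled replicate 2. The median log2 difference over start peaks stayed between -0.008 and 0.014. Of the 31 named genes tested in RNA 8 were called, 6 to 10 when 1 library was left out and 10 with the replicate block. Over all 12891 genes of the RNA test 8.02% were called, and some of the 31 were picked on the ATAC-seq contrast. Over 22 results on single start peaks, 256 values kept their direction and side of the threshold, 53 came past it, 40 no longer passed and 1 reversed (Elf4, main start peak, log2 -0.0064 in the second run alone). Depth limits the short pieces: 8.43% of start peaks under 200 bases passed the filter, against 99.1% of those from 500 to 1000 bases. With 3 libraries a group, the share test cannot pass 0.05.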
